A study of Mus musculus with 6 samples.

Results

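The Zfp genes encode zinc finger proteins that were numbered in the order of their discovery. The mouse array used here held 336 genes whose single platform symbol was Zfp followed by a digit. Of these, 254 were counted as expressed in fully grown oocytes and are described here, out of 12442 genes that passed the same rule. A gene passed when a probe set, the group of short probes that reads 1 transcript, lay at or above its array's median on 3 or more of 6 arrays after quantile normalization. The brightest passing probe set stood for its gene. The genes were thus selected on their levels in both groups together. The other 82 Zfp genes lay below it.

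RNA came from oocytes at the germinal vesicle (GV) stage, which are fully grown, still arrested in meiotic prophase, and carry a store of maternal mRNA. XY females came from B6.Y(TIR), a mouse line that carries the Tirano Y chromosome on C57BL/6 and whose XY animals can form ovaries, and XX females were their littermates. Both were 25 to 29 days old and had been given 5 IU of equine chorionic gonadotropin. Oocytes were taken 45 to 47 hours later, freed of cumulus cells by pipetting, and used at 10 per female, from 3 XX and 3 XY females. The XY group differs from the XX group in having a Y chromosome and also in having a single X, so effects of the Y and of X dosage cannot be told apart in this comparison.

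Most proteins of this class hold a row of C2H2 fingers, small folds built around a zinc ion that read DNA in series. Many also carry a KRAB box, which binds the corepressor TRIM28. TRIM28 brings the histone methyltransferase SETDB1 and heterochromatin proteins, and by this route KRAB zinc finger proteins silence retroelements and keep the methylation of imprinted regions through early development. The genes arose by repeated local duplication and many lie side by side on the chromosomes. A few carry the Zfp name for other kinds of finger, such as the CCCH fingers of the Zfp36 family, which bind AU-rich RNA and call in deadenylation.

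Oocyte markers were present on the arrays, with 14 of 14 genes past the filter and a summed quantile-normalized intensity of 87118 to 96016 in XX and 80779 to 84407 in XY. This sum was lower in all XY arrays. Among its genes, X-linked Bmp15 fell by 1.34 log2 units and Mos by 0.85, and Ddx4 rose by 1.01. These and the markers named next were chosen after their values were seen. Of 10 granulosa and cumulus markers 7 passed the filter, 6 of these with changes above 0, and the 10 summed to 1192 to 1453 in XX and 1433 to 1550 in XY. Among them Inha rose by 1.58 ± 0.41 (log2 ± SE, limma adjusted p = 0.0475), from log2 levels of 7.21, 5.90 and 5.54 to 8.03, 7.83 and 7.53. For 7 theca and stroma markers, 3 of which passed, the sum was 161 to 217 in XX and 312 to 506 in XY. Blood markers (3 of 5 passed) summed to 140 to 172 and 189 to 241, testis somatic markers (2 of 4) to 85.6 to 197 and 203 to 216, and endothelial markers (3 of 4) to 184 to 346 and 237 to 338. Sums of theca, blood and testis somatic markers were thus higher in all XY arrays, and the blood marker Cd68 rose by 0.59 (limma adjusted p = 0.0393). In these lists 0 markers were listed at 0, and the part of such cells in the results was not tested. Arrays correlated at 0.967 to 0.983 within XX, 0.980 to 0.982 within XY and 0.940 to 0.962 between groups. XX 1 stood apart from XX 2 and XX 3. The Actb 3' probe set exceeded the 5' one, a measure of RNA integrity, by 5.53 log2 units on it, against 3.87 and 4.0 on XX 2 and XX 3 and 5.20 to 5.90 on the XY arrays. Results are therefore also given without XX 1. That leaves XX arrays at 3.87 and 4.0 and XY arrays at 5.20 to 5.90, so the ratio then differs fully between the groups. A fit without XX 1 cannot tell the ratio and the groups apart. Each sample held 10 oocytes, so the number of oocytes did not differ. In such bulk samples a change in some oocytes and a smaller change in all of them cannot be told apart. The same holds for the number of carried-over somatic cells and their RNA per cell.

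Among the 254 expressed Zfp genes, 31 fell (12.2%) and 13 rose (5.12%) in XY oocytes at an adjusted p of 0.05 by limma. Limma compares groups with each gene's variance drawn towards a value common to all genes. Over all 12442 genes tested, 5.34% fell and 7.87% rose. The Zfp genes thus had a share of falls above that of all genes and a share of rises below it. Falls were at least 2-fold for 23 of them (9.06%, against 2.51% of all genes), and rises for 6 (2.36%, against 4.13%). The median log2 change was -0.12 in the Zfp genes and 0.07 in all genes, and 55.9% of Zfp genes lay below 0 against 44.4% of all genes. The middle of the Zfp distribution ran from -0.52 at the lower quartile to 0.32 at the upper, and that of all genes from -0.26 to 0.41. XX and XY values did not overlap in 110 Zfp genes (43.3%, against 38.8% of all genes), 70 of them lower in XY (27.6%) and 40 higher (15.7%), where the shares of all genes were 16.1% and 22.6%.

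**Figure D1:**
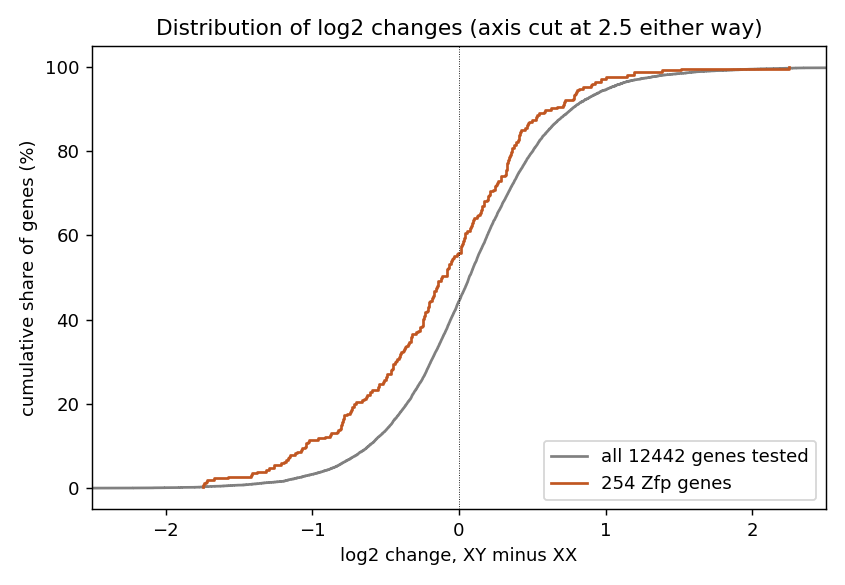
Cumulative share of genes (%, vertical axis) by log2 change of XY minus XX (horizontal axis, on the log2(intensity + 9) scale) for 254 Zfp genes (orange) and all 12442 genes tested (grey). The Zfp curve lies to the left, with a median of -0.12 against 0.07, and 55.9% against 44.4% of genes below 0.

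The split between higher and lower genes moved with the scaling of the arrays. In the deposited values 5 Zfp genes rose and 29 fell, and their median was -0.27. Median scaling gave 6 and 63 with a median of -0.43. Trimmed mean scaling gave 16 and 23 with a median of 0.021. The median of all genes moved too, to -0.12, -0.27 and 0.18. Relative to all genes, the Zfp median stayed between -0.20 and -0.12 over 18 alternatives. The share of falls was above that of all genes in 18 of 18, by 1.90 to 3.97 times, against 2.29 times as reported. The share of rises was below that of all genes in 17 of 18, the exception being the fit with the Actb ratio as a covariate (1.97% against 1.26%). Without XX 1, 24 of 247 rose (9.72%) and 51 fell (20.6%), where 16.9% and 10.7% of all genes did so. With each gene centred on its mean over the 6 arrays, the Zfp median exceeded that of all genes by 0.040 on XX 1, 0.081 on XX 2 and 0.14 on XX 3. The same difference was -0.084 on XY 1, -0.054 on XY 2 and -0.10 on XY 3. The groups did not overlap on this measure, and XX 1 lay nearest to XY.

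**Figure D2:**
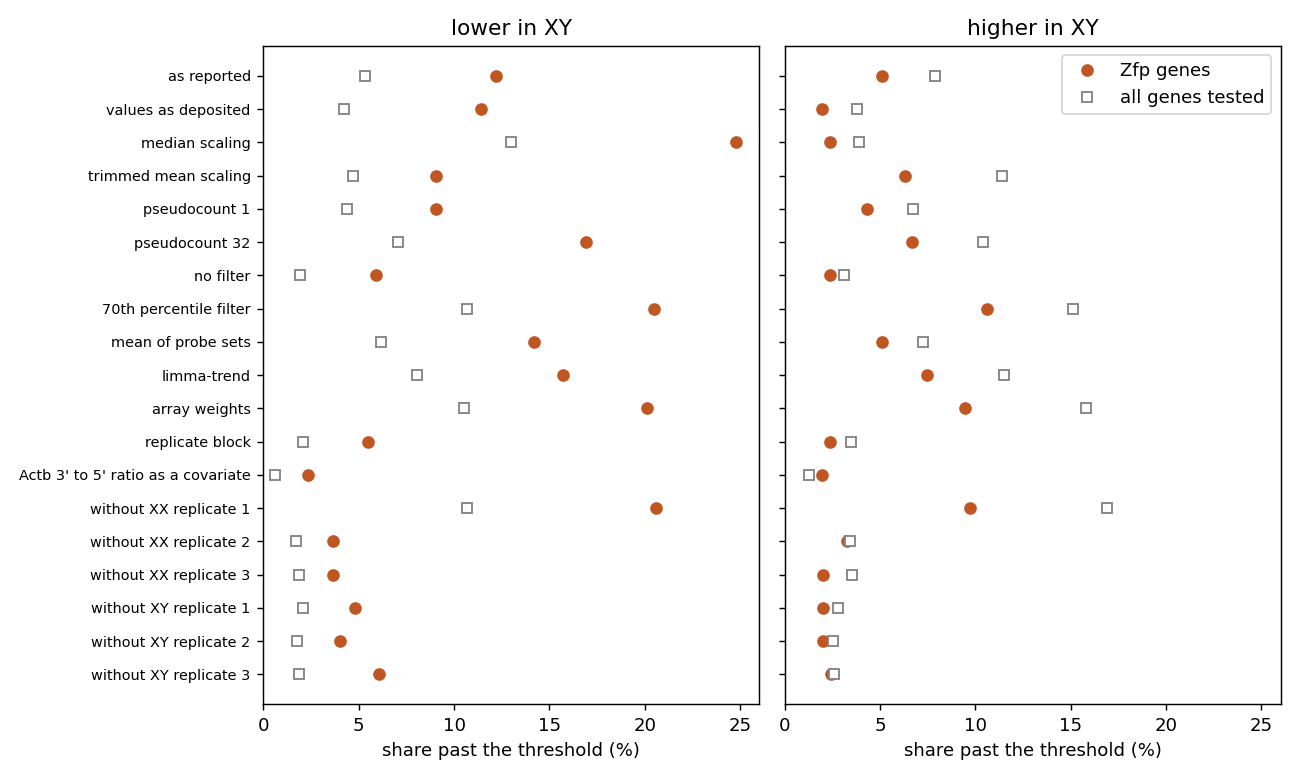
Share of genes past the threshold (%, horizontal axis) that were lower in XY (left panel) or higher in XY (right panel), for Zfp genes (orange circles) and all genes tested (grey squares), as reported and under 18 alternatives (vertical axis). Zfp falls lie to the right of all genes in each, from 2.36% against 0.595% with the Actb covariate to 24.8% against 13% with median scaling.

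The filter bears on these counts. Of the 254, 204 lay at or above the median on all 6 arrays, and among them 12 rose (5.88%) and 23 fell (11.3%), where 8.03% and 5.71% of 10098 such genes in all did so. A further 11 passed on 3 XX arrays and at most 1 XY array, 7 of which fell, and 3 passed on 3 XY arrays and at most 1 XX array, 0 of which rose. Of these 7, Zfp42 and Zfp991 passed on 0 XY arrays, and Zfp24, Zfp646, Zfp81, Zfp128 and Zfp281 on 1. The 3 XX arrays alone carried each of the 7 past the filter, so that their lower XY values are part of how they were chosen. Just inside the filter lay Zfp54, Zfp647 and Zfp689, where the array that decided it read 0.0036, 0.049 and 0.058 log2 units above the median. Just outside lay Zfp868, Zfp280c and Zfp879, at -0.0060, -0.012 and -0.052. The 82 genes below the filter had 142 probe sets, of which 0 passed limma's adjusted p in a fit of 34945 probe sets without the filter and 12 had an unadjusted p under 0.05.

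The longest row of neighbouring Zfp genes lay on chromosome 17, where 16 expressed members from Zfp160 to Zfp946 were separated by at most 5 other protein-coding genes each. Of these 4 rose, namely Zfp948, Zfp820, Zfp995 and Zfp994, and 1 fell, Zfp53, which is next to Zfp948 among the expressed members. The promoters of 4 of the 5 are shown because this row holds members that moved together beside one that moved the opposite way. They are RefSeq sequences of build GRCm38.p6, from 250 bases before to 50 after the annotated start, 5' to 3', at chr17:21488738-21489037 (plus strand), chr17:21566728-21567027 (plus strand), chr17:21845710-21846009 (minus strand) and chr17:22225565-22225864 (minus strand). Capitals mark matches, on either strand, to the GC box GGGCGG, the CCAAT box, the E-box CACGTG, the TATA box TATAAA, the ZFP57 motif TGCCGC and the NOBOX motif TAATTG. Matches can overlap.
Zfp53: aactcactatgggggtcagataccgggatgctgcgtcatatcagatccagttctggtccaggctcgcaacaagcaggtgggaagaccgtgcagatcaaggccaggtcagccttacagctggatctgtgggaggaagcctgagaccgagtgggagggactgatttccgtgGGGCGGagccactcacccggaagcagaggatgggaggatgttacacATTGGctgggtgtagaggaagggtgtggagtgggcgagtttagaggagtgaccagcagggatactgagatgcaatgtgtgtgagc
Zfp948: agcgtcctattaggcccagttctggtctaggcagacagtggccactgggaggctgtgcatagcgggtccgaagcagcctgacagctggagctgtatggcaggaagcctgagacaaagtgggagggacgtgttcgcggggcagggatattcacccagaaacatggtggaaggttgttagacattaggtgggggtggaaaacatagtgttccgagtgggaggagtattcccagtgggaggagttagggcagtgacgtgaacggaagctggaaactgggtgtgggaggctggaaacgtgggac
Zfp820: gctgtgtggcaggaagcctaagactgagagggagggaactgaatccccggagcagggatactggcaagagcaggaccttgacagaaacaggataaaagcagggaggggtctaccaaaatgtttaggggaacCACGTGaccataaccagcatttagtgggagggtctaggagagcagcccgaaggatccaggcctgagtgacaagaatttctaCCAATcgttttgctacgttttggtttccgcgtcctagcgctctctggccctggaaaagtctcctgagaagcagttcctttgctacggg
Zfp994: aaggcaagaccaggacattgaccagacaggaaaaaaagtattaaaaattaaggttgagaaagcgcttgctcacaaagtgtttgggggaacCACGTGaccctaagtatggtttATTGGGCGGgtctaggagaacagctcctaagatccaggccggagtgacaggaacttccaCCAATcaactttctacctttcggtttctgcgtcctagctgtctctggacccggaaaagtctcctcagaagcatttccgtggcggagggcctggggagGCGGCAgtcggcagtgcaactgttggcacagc

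Zfp820 and Zfp994 both rose, and their promoters were 59.8% identical in a global alignment. Zfp53 and Zfp948 went opposite ways, and theirs were 56.5% identical. The other 8 pairs among the 5 genes had 45.1% to 48.1%. The E-box was present in the promoters of Zfp820 and Zfp994, as in 7.15% of all 32851 promoters given, and the CCAAT box in those of Zfp53, Zfp820 and Zfp994, as in 37.4%. The GC box, in 35.7% of all, was present in Zfp53 and Zfp994. None of the 6 motifs was found in the windows of Zfp948 or Zfp995. RefSeq promoters were matched by symbol for 210 of the 254 members. Over their 263 starts, the GC box was found in 49.0%, the CCAAT box in 44.1%, the E-box in 6.08%, the TATA box in 6.84%, the ZFP57 motif in 18.3% and the NOBOX motif in 3.42%. For the 12822 starts of all genes tested the shares, in the same order, were 58.8%, 37.7%, 9.59%, 8.06%, 18.3% and 5.23%. The median number of CpG was 16 in members against 19 in genes tested. Among members, the GC box was in 8 of 13 starts of genes that rose and 11 of 28 of genes that fell, and the ZFP57 motif was in 4 and 6.

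In the row on chromosome 17, Zfp948 had levels of 4.65, 5.98 and 5.93 in XX 1, XX 2 and XX 3 and of 7.12, 6.87 and 6.73 in XY 1, XY 2 and XY 3, on the log2(quantile-normalized intensity + 9) scale used for all levels. It rose by 1.39 ± 0.36 (log2 ± SE, limma adjusted p = 0.0466, 2.61-fold). XX 1 was the lowest XX array, and the groups did not overlap. Zfp820 had levels of 6.91, 6.5 and 6.59 in XX and 8.0, 7.79 and 7.66 in XY, and rose by 1.15 ± 0.18 (adjusted p = 0.0111). Zfp995 had levels of 6.65, 7.08 and 6.93 in XX and 8.17, 8.25 and 7.83 in XY, and rose by 1.20 ± 0.19 (adjusted p = 0.0114). A second probe set of each of these genes also lay higher in XY, by 0.67 for Zfp820 and by 0.93 for Zfp995. The array's maker names this second probe set of Zfp995 as cross-hybridizing. Zfp994 rose by 0.97 ± 0.18, from 8.30, 8.38 and 8.16 to 9.24, 9.53 and 8.99. Zfp53 fell by 0.72 ± 0.15 (adjusted p = 0.0256), from 6.81, 6.82 and 7.0 in XX to 6.30, 6.13 and 6.04 in XY. The XY arrays were on 1 side of the XX arrays in each of the 5. The median log2 change of the row was 0.31. Deposited values gave 0.027 for it, median scaling -0.12 and trimmed mean scaling 0.32, but the median of all genes moved as far, and the row exceeded it by 0.15 under each of these 3. Without XX 1 the row had 0.13 and exceeded all genes by 0.048. In the deposited values Zfp994 (0.68), Zfp53 (-0.74) and Zfp995 (1.01, adjusted p = 0.0577) did not pass. Zfp948 missed the threshold in each of the 5 fits that left out an array other than XX 1.

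A second row on chromosome 17, 9 members from Zfp472 to Zfp414, leaned the other way, with 8 of 9 below 0 and a median of -0.40. Zfp81 fell by 1.38 ± 0.33, from 6.70, 6.09 and 6.18 in XX to 4.29, 5.00 and 5.54 in XY. The 3 XX arrays alone carried it past the filter, with 1 XY array at or above the median. Zfp952 fell by 0.79 ± 0.15, from 9.11, 9.11 and 9.15 to 8.41, 8.43 and 8.17, with XX arrays close to each other. Zfp763 rose by 0.90 ± 0.21, from 6.61, 5.98 and 6.0 to 7.17, 7.22 and 6.91. Under median scaling and in the deposited values it did not pass, and 0 members of the row rose. The median of this row was -0.77 in the deposited values, -0.93 under median scaling and -0.46 under trimmed mean scaling, or -0.65, -0.66 and -0.64 relative to all genes. Zfp81 did not pass without XX 1 (-1.19, adjusted p = 0.0574). Elsewhere on chromosome 17 Zfp959 rose by 0.97 ± 0.14 (adjusted p = 0.00864), from 6.93, 6.99 and 6.91 to 7.83, 7.94 and 7.96. Zfp959 did not pass in the deposited values or under median scaling. With it, 6 of 31 members on chromosome 17 rose and 3 fell, where 5.86% and 5.69% of the chromosome's 580 tested genes did so.

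**Figure D3:**
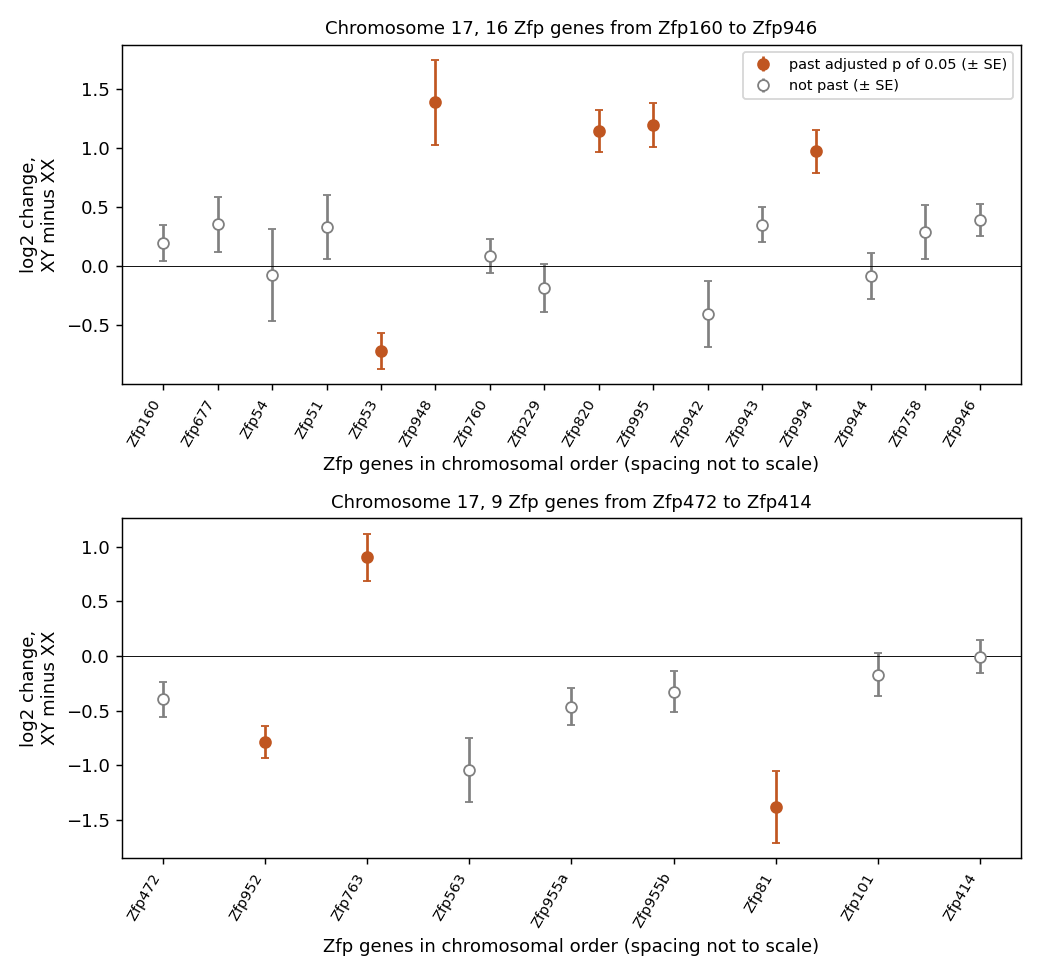
Log2 change of XY minus XX with its SE (vertical axis) for expressed Zfp genes in chromosomal order (horizontal axis, not to scale) in the 2 rows of neighbours on chromosome 17. Filled orange points passed an adjusted p of 0.05. In the upper row Zfp948, Zfp820, Zfp995 and Zfp994 lie near 1 or above and Zfp53 lies at -0.72, and in the lower row 8 of 9 lie below 0.

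Of 11 rows with at least 4 members, the one on chromosome 7 from Zfp787 to Zfp28 had 6 of 6 changes above 0 and a median of 0.39. Zfp78 rose there by 0.81 ± 0.17, from 8.87, 8.84 and 8.79 to 9.90, 9.57 and 9.45, and Zfp444, which encodes a SCAN domain zinc finger, by 0.72 ± 0.19, from 7.46, 7.64 and 7.12 to 8.12, 8.33 and 7.95. Neither passed in the deposited values or under median scaling, and 1 of the 6 lay below 0 under the latter. On chromosome 13, the row from Zfp708 to Zfp729a had 11 members with changes from -1.73 to 0.58. In it Zfp708 and Zfp58 fell, while 5 of 11 lay above 0. In all, 86 members lay in rows, with 9 that rose (10.5%) and 8 that fell (9.3%), and 168 lay outside them, with 4 that rose (2.38%) and 23 that fell (13.7%), beside 7.87% and 5.34% of all genes. The difference between members in and outside rows was not tested. Chromosome 7 held the most members, 67, with 5 that rose and 4 that fell, where 8.2% and 3.68% of the chromosome's 951 tested genes did so. Similarity between the transcripts of neighbouring Zfp genes was not measured, and whether a probe set also reads a neighbour's transcript was not tested. Probe sets that the array's maker names as shared or cross-hybridizing (suffixes s and x) stood for 21 of the 254 members and 6 of the 44 called.

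The largest rise was that of Zfp618 on chromosome 4, whose human counterpart is known to bind 5-hydroxymethylcytosine together with UHRF2. Its levels were 9.22, 9.28 and 9.03 in XX and 10.70, 10.72 and 10.64 in XY. It rose by 1.51 ± 0.14 (adjusted p = 0.00331, 2.85-fold). Its 3 other kept probe sets lay higher in XY by 0.28, 1.0 and 0.33, and the call ended when all 4 were averaged (adjusted p = 0.0622). Zfp710 on chromosome 7 rose by 1.01 ± 0.15, from 7.29, 7.41 and 7.23 to 8.40, 8.37 and 8.18. Zfp771 rose by 1.20 ± 0.28, with a wide XX spread of 6.67, 6.19 and 5.56 against 7.44, 7.15 and 7.41, and its probe set is of the cross-hybridizing kind. Zfp82 rose by 0.93 ± 0.21, from 8.50, 8.82 and 8.15 to 9.60, 9.30 and 9.36. Zfp105, first described in testis, rose by 0.91 ± 0.21, from 5.44, 6.18 and 5.86 to 6.70, 6.70 and 6.82. Of these, Zfp618 and Zfp710 passed in every fit that left out an array. Zfp710, Zfp82 and Zfp105 did not pass in the deposited values or under median scaling, while Zfp618 and Zfp771 did.

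**Figure D4:**
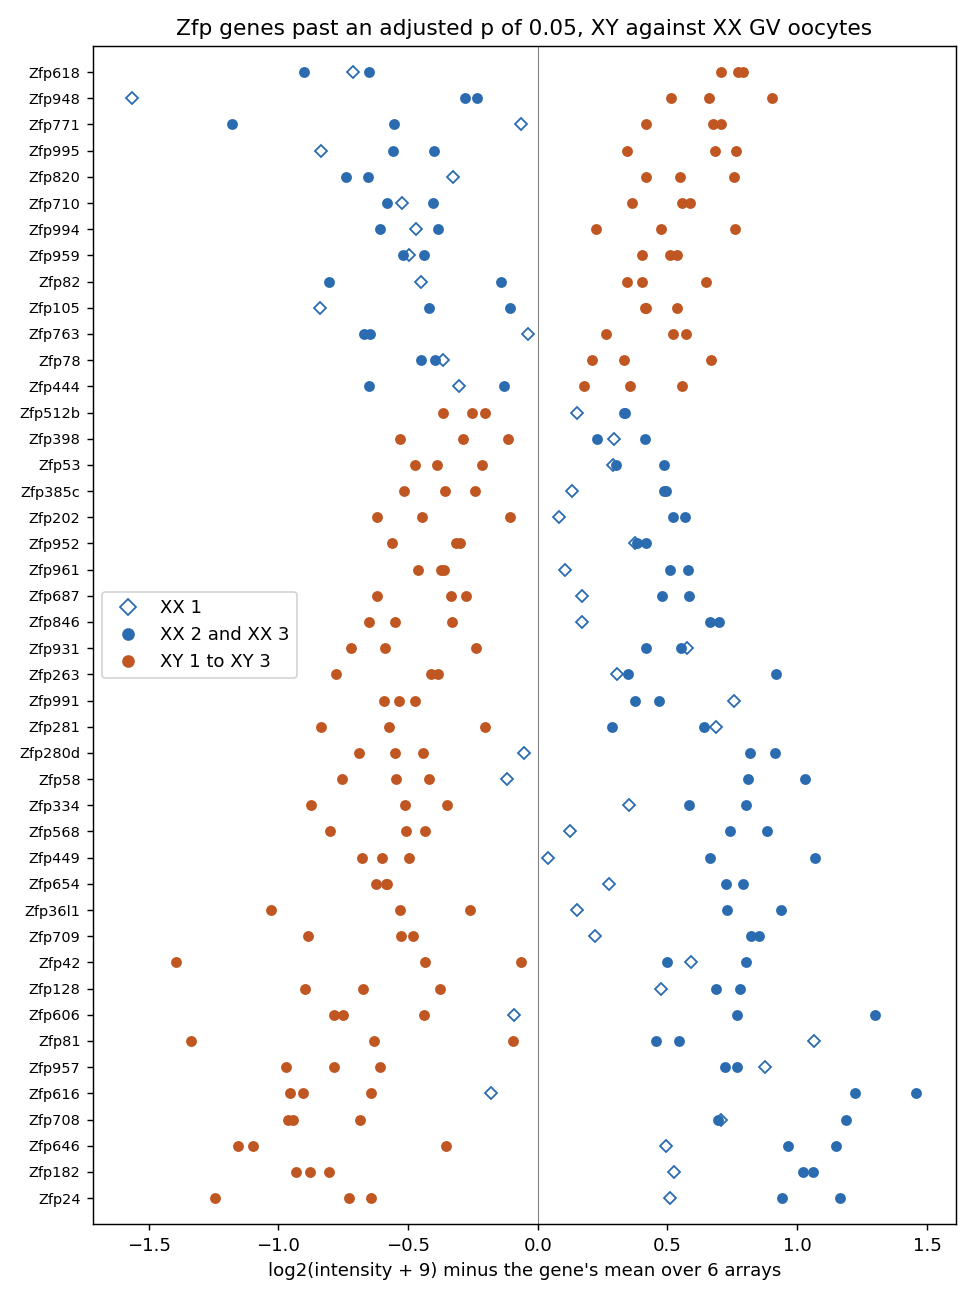
Level of each of the 44 called Zfp genes on each array, as log2(intensity + 9) minus the gene's mean over 6 arrays (horizontal axis), ordered by log2 change (vertical axis). Blue marks XX (open diamond, XX 1) and orange XY, and the groups do not overlap in any of the 44. XX 1 is the XX array nearest to XY in 23 of the 31 genes that fell.

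Among the falls, Zfp182, Zfp708 and Zfp957 passed in all 18 alternatives. Zfp182, an X-linked KRAB zinc finger gene, had levels of 9.12, 9.62 and 9.66 in XX and 7.79, 7.72 and 7.67 in XY, and fell by 1.74 ± 0.19 (adjusted p = 0.00464, 3.34-fold). Zfp957 on chromosome 14 had levels of 10.26, 10.10 and 10.15 in XX and 8.60, 8.41 and 8.77 in XY, and fell by 1.58 ± 0.16 (adjusted p = 0.0038). Its second kept probe set gave -1.66. Here XX 1 was level with XX 2 and XX 3.

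Zfp24 on chromosome 18, a SCAN domain gene known from myelination, fell by 1.74 ± 0.24, from 6.40, 7.06 and 6.84 to 4.65, 5.25 and 5.17. Its other kept probe sets gave -0.82 and -0.46. Zfp646 fell by 1.74 ± 0.27, from 6.61, 7.07 and 7.26 to 5.01, 4.96 and 5.76, while its other kept probe set gave 0.07. Zfp128 fell by 1.30 ± 0.18, from 6.19, 6.40 and 6.5 to 5.34, 4.82 and 5.04. Without XX 2 another probe set stood for Zfp24, whose change was then -0.49 (adjusted p = 0.272). In XY Zfp24, Zfp646 and Zfp128 lay near or below the middle of their arrays, where the pseudocount narrows differences. Each reached the median on 1 of 3 XY arrays, and the 3 XX arrays alone carried them past the filter. Zfp654 on chromosome 16 fell by 1.19 ± 0.18, from 9.34, 9.86 and 9.79 to 8.44, 8.48 and 8.48. Its only kept probe set is of the shared kind (suffix s). Zfp709 fell by 1.26 ± 0.22, from 8.68, 9.31 and 9.28 to 7.94, 7.58 and 7.98, and its second probe set gave -1.07.

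In a further group XX 1 lay between the other XX arrays and XY. Zfp616 had levels of 8.62, 10.26 and 10.02 in XX 1, XX 2 and XX 3 and of 8.16, 7.90 and 7.85 in XY, and fell by 1.67 ± 0.41 (adjusted p = 0.0401). Zfp606, a KRAB repressor gene, had 6.19, 7.58 and 7.05 in XX and 5.53, 5.49 and 5.84 in XY, and fell by 1.32 ± 0.34. XX 1 was the lowest XX array in 23 of the 31 Zfp genes that fell (74.2%), and in 55.3% of all 664 genes that fell. The Actb 3' to 5' ratio sets the same array apart. A fit that includes this ratio has 1 degree of freedom less and called 5 Zfp genes higher and 6 lower. Of the 44 reported calls it kept 7 and lost 37. The ratio was lower on XX 2 and XX 3 than on every XY array, so this fit cannot fully separate it from the groups.

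The remaining 16 falls ran from -1.16 to -0.55. For 3 of the 44 called genes, Zfp646, Zfp961 and Zfp398, another kept probe set went the opposite way, at 0.07, 0.12 and 0.30. Zfp398 had 5 kept probe sets, of which 4 were lower in XY, and Zfp961 fell by 0.80 ± 0.17, from 9.87, 10.27 and 10.34 to 9.30, 9.39 and 9.40. All 44 calls kept their sign in each alternative that tested them. When 1 array at a time was left out, 11 passed in all 6 such fits, namely Zfp182, Zfp646, Zfp708, Zfp957, Zfp128, Zfp654, Zfp959, Zfp710, Zfp820, Zfp995 and Zfp618. Zfp991 passed in the 3 that left out an XY array and fell below the filter in the other 3. The remaining 32 missed the threshold in at least 1. Under the 3 other scalings 21 of 44 passed in each, and the only rises among these were Zfp820, Zfp771, Zfp948 and Zfp618. With the Actb ratio in the fit 7 of 44 passed. Of the 11 that passed in all 6 fits above, Zfp646, Zfp128, Zfp654, Zfp959, Zfp710 and Zfp820 did not pass with that ratio. Zfp646 and Zfp128 are also genes that the 3 XX arrays alone carried past the filter.

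Genes with known roles in imprinting and retroelement silencing had 0 of 8 that rose and 2 that fell. Beside this and the role groups that follow stand the shares of all genes, 7.87% that rose and 5.34% that fell, and of all expressed Zfp genes, 5.12% and 12.2%, and with 3 to 9 genes a group these counts are small. Zfp708, known to bind a retroelement class and keep its methylation, fell by 1.73 ± 0.19 (adjusted p = 0.00478), from 8.89, 9.37 and 8.88 to 7.5, 7.22 and 7.24. Zfp568, the repressor of a placental Igf2 transcript, fell by 1.16 ± 0.23 (adjusted p = 0.022), from 9.70, 10.32 and 10.46 to 9.07, 8.78 and 9.14. Both groups of values were apart, with XX 1 of Zfp568 nearest to XY. Zfp568 missed the threshold in 5 of 6 fits that left out an array, Zfp708 in 0.

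Zfp57, the maternal-effect protector of imprints, had levels of 8.69, 8.72 and 8.18 in XX and 8.39, 8.39 and 8.34 in XY. Its change of -0.15 had a 95% interval of -0.59 to 0.28, and the groups overlapped. Zfp445, which shares that role, had 0.02 (-0.30 to 0.35), although it was -0.35 in the deposited values and -0.51 under median scaling, and its other kept probe sets gave -0.70 and -1.22. Zfp932, a silencer of endogenous retroviruses, had levels of 11.21, 11.46 and 11.24 in XX and 10.86, 10.73 and 10.69 in XY, apart but with an adjusted p of 0.0534 for a change of -0.54 ± 0.15. Zfp809, which targets a retroviral primer binding site, had 0.15 (-0.52 to 0.82). X-linked Zfp92, which binds short interspersed elements, had -0.45 (-1.0 to 0.10), and Zfp819 had -0.32 (-1.06 to 0.42).

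**Figure D5:**
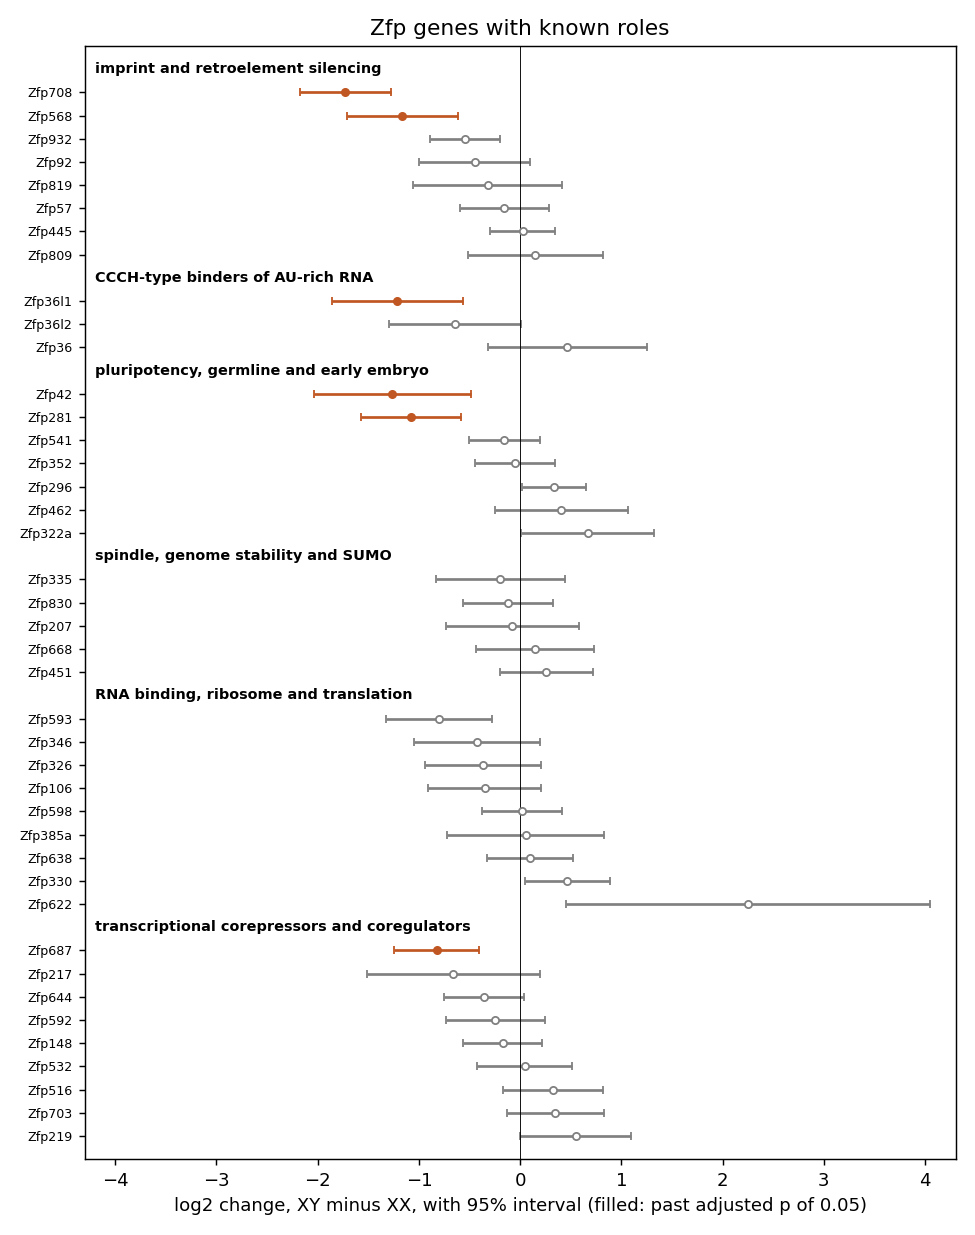
Log2 change of XY minus XX with its 95% interval (horizontal axis) for expressed Zfp genes in 6 groups of known role (vertical axis). Filled orange points passed an adjusted p of 0.05: Zfp708, Zfp568, Zfp36l1, Zfp42, Zfp281 and Zfp687, all below 0, while the widest interval is that of Zfp622, from 0.46 to 4.05.

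Of the CCCH-type RNA-binding genes, 1 of 3 fell and 0 rose. Zfp36l1, which promotes decay of AU-rich mRNA, fell by 1.21 ± 0.27 (adjusted p = 0.0315), from 6.62, 7.40 and 7.20 to 6.20, 5.94 and 5.44. Zfp36l2, known to be needed for oocyte competence, had -0.65 (-1.30 to 0.00), with 6.78, 7.04 and 6.39 in XX and 6.58, 5.65 and 6.03 in XY. Zfp36 had 0.46 (-0.32 to 1.25). The values of the last pair of genes overlapped between the groups, and Zfp36l1 missed the threshold in 5 of 6 fits that left out an array.

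Among genes of pluripotency, the germ line and the early embryo, 0 of 7 rose and 2 fell. Zfp281, a factor of the pluripotent state, fell by 1.08 ± 0.21, from 6.39, 5.99 and 6.34 to 4.86, 5.13 and 5.49, and its second probe set gave -0.11. Zfp42, also called Rex1 and a marker of naive pluripotency, fell by 1.26 ± 0.33, from 5.71, 5.93 and 5.62 to 3.73, 5.06 and 4.69. Both lie low in XY, and neither passed with trimmed mean scaling. Zfp281 lay at or above the median on 3 XX arrays and 1 XY array, Zfp42 on 3 and 0. The lower XY values of both falls in this group are thus part of how the genes were chosen. Zfp296 was bright, at 12.86, 13.00 and 12.88 in XX and 13.20, 13.26 and 13.29 in XY. Its groups did not overlap, but the change of 0.33 (0.01 to 0.65) did not pass and was -0.10 with median scaling. Zfp322a had 0.67 (0.01 to 1.32), with XX 1 level with XY, Zfp462 had 0.41, Zfp541, a meiotic gene of the male germ line, -0.16, and Zfp352, active in the early embryo, -0.05.

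None of 5 genes of the spindle, genome stability and SUMO passed limma's threshold, and 0 had an unadjusted p under 0.05. Zfp207, which brings BUB3 to kinetochores, had -0.08 (-0.74 to 0.58), with XX at 9.29, 10.31 and 10.04 around XY at 10.07, 9.68 and 9.65. Another kept probe set of Zfp207 gave 0.50. Zfp830, known to be needed for the survival of oocytes, had -0.12 (-0.56 to 0.32), and its other kept probe sets gave -0.85 and 0.003. The SUMO ligase gene Zfp451 had 0.26, the DNA repair gene Zfp668 0.15 and Zfp335 -0.19. The intervals of these 5 reach from -0.83 to 0.73.

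Of 9 genes of RNA binding, the ribosome and translation, 0 passed limma's threshold and 3 had an unadjusted p under 0.05. Zfp622, which takes part in the maturation of the large ribosomal subunit, had the largest positive value of all 254 members, 2.25 ± 0.76 (adjusted p = 0.0909). Its levels were 9.32, 6.15 and 6.84 in XX and 9.19, 9.61 and 10.28 in XY, so that XX 1 lay with the XY arrays and the groups overlapped. Without XX 1 the change was 3.19 (adjusted p = 0.00577), and with the Actb ratio in the fit it was 0.60 (adjusted p = 0.619). The deposited values gave 2.04 (adjusted p = 0.0259). Zfp593, also of ribosome assembly, had -0.80 ± 0.22 (adjusted p = 0.0572), at 10.24, 9.57 and 9.58 in XX and 9.11, 8.79 and 9.09 in XY. The nucleolar gene Zfp330 had 0.47 (0.04 to 0.89), and Zfp598, the ligase that marks collided ribosomes, 0.02 (-0.38 to 0.41). The RNA-binding genes Zfp346, Zfp326, Zfp106, Zfp638 and Zfp385a had -0.42, -0.37, -0.35, 0.10 and 0.06. Another kept probe set of Zfp638 gave -0.94, and those of Zfp106 gave -0.91 and 0.61.

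Transcriptional coregulators had 0 of 9 that rose and 1 that fell. Zfp687, of a chromatin complex with its relative Zfp592, fell by 0.82 ± 0.18 (adjusted p = 0.0285), from 7.75, 8.16 and 8.06 to 7.30, 6.96 and 7.25. Zfp592 itself had -0.24 (-0.74 to 0.25), while its other kept probe sets gave 0.35 and 0.21. Zfp217, a partner of the CoREST complex, had -0.66 with an XY spread of 5.96, 5.42 and 6.93. Zfp644, which works with the methyltransferase G9a, had -0.36, Zfp148 -0.17, Zfp532 0.04, Zfp516 0.32, Zfp703 0.35 and Zfp219 0.55. Other kept probe sets of Zfp148 gave -0.83, -1.34, -0.49 and -0.03, and that of Zfp703 gave -0.24.

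The 5 X-linked members had 2 that fell and 0 that rose, on a chromosome where 25.3% of 375 tested genes fell. Beside Zfp182, Zfp449 fell by 1.18 ± 0.26 (adjusted p = 0.0298), from 8.73, 9.76 and 9.35 to 8.01, 8.19 and 8.09. Zfp92 is given above. Zfp275 had 0.08 (-0.41 to 0.56). Zfp185 had 0.78 (-0.052 to 1.62), with levels of 3.99, 5.19 and 5.29 in XX and 5.46, 5.92 and 5.44 in XY, apart but not past the threshold, and it encodes a LIM domain protein and not a C2H2 protein. With the X-linked members aside, 29 of the 31 falls were autosomal.

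Genes that work with these proteins were measured as well. In the TRIM28 silencing list 2 of 22 rose (9.09%, near the 7.87% of all genes) and 0 fell. Hdac1, a histone deacetylase gene, rose by 0.83 ± 0.14 (adjusted p = 0.0126), from 7.27, 7.30 and 7.34 to 8.05, 8.17 and 8.19. The chromatin adaptor gene Rbbp4 rose by 0.58 ± 0.14 (adjusted p = 0.0394), but had 0.12 as the mean of its probe sets. Neither passed in the deposited values or under median scaling, and Hdac1 also missed the threshold without XY 2 or XY 3, Rbbp4 without any 1 array other than XX 1. Morc3, an ATPase gene of retroelement silencing, had -0.62 (adjusted p = 0.0514), and the heterochromatin protein gene Cbx5 had 0.61. Trim28 and Setdb1, chosen for mention after their values were seen, had 0.41 (0.03 to 0.80) and -0.08 (-0.47 to 0.32). Trim28 read 12.51, 12.06 and 12.30 in XX and 12.65, 12.71 and 12.75 in XY.

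In the list of deadenylation and RNA decay, partners of the Zfp36 family, 0 of 23 rose and 2 fell (8.7%, beside 5.34% of all genes). The exonuclease gene Xrn1 fell by 1.44 ± 0.32 (adjusted p = 0.0295), from 6.34, 7.23 and 7.45 to 5.51, 5.26 and 5.92. Pan3, a subunit of a deadenylase, fell by 1.76 ± 0.43 (adjusted p = 0.0398), from 9.16, 10.80 and 10.80 to 8.47, 8.41 and 8.62, with XX 1 nearest to XY. Without XX 1 these changes were -1.78 and -2.30, and with the Actb ratio in the fit -0.92 and -0.79, where neither passed. Both also missed the threshold in each of the 5 fits that left out another array. Parn, another deadenylase gene, had 0.58, and the decapping gene Dcp1a -0.68.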

How the data were processed

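GV oocytes of 3 XX and 3 XY females were profiled on an Affymetrix 3' array after labelling in 2 cycles, per the labels' protocols. The submitters' processing notes list MAS5 alone, with no settings. The deposited values are intensities on a linear scale, 1 per probe set, whose array medians ran from 24.5 to 31.4. They were therefore quantile-normalized here and used as log2(value + 9), where 9 is near their 25th percentile as deposited. Fold changes on that scale understate those of dim genes, and a change in total mRNA cannot be seen. Probe sets with 1 platform symbol were named. Fits used limma 3.58.1 in R 4.3.3 with Benjamini-Hochberg adjustment over 12442 genes, and were tested on simulated data. Promoters were searched with Biostrings 2.70.1.

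The members, role lists and partner lists were chosen with earlier results of these data known. Genes named are the 13 rises, the 15 largest falls, role group and X-linked members, called members whose probe sets disagree, genes at the filter's edge, and the 4 partners with the smallest p in each partner list. Others in rows of neighbours were named after their values were seen. Deviations of same-numbered arrays correlated at -0.10, 0.001 and -0.04, so the values gave no sign that replicate numbers pair the samples. With 3 arrays per group this cannot exclude pairing by litter. Precision is limited by the number of arrays, 3 per group. Samples are separate females per the labels. Alternatives covered scaling, pseudocount, filter, probe sets, variance model, array weights, block, Actb covariate, threshold and leaving out each array. Protein features of the members were not analysed here.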

Additional observations from a re-analysis of the deposited data

How the results depend on the processing

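Members that rose and fell, 13 and 31 of 44 as reported, numbered 5 and 29 with the deposited values, 6 and 63 (69 in all) with median scaling, 6 and 15 (21) with no filter, 24 and 51 (75) with array weights, 5 and 6 (11) with the Actb covariate, 3 and 6 (9) at a threshold of 0.01 and 24 and 55 (79) at 0.1. With the replicate number as a block they were 6 and 14 (20), and whether the numbers pair the samples by litter is not known. Leaving out 1 array gave 5 to 24 that rose, 9 to 51 that fell and 14 to 75 in all, the highest of each without XX 1. Without XX 1 the Actb ratio does not overlap between the groups. With each of the other 5 arrays left out at most 21 passed, and fewer samples are part of that construction. The member median, -0.12, was -0.27 with the deposited values, -0.43 with median scaling, 0.021 with trimmed mean scaling, -0.083 with a pseudocount of 32, -0.080 with the 70th percentile filter, -0.078 with array weights and -0.075 with the Actb covariate, and it ran from -0.12 to -0.071 when 1 array was left out. Of 89 single genes followed, 17 changed sign in some alternative, and 0 of these had passed. With the deposited values these were Zfp352 (0.068), Zfp385a (-0.10), Zfp445 (-0.35), Zfp451 (-0.12), Zfp532 (-0.27), Zfp598 (-0.35) and Zfp638 (-0.27). With median scaling they were Zfp296 (-0.10), Zfp330 (-0.072), Zfp385a (-0.26), Zfp445 (-0.51), Zfp451 (-0.29), Zfp532 (-0.43), Zfp598 (-0.51), Zfp638 (-0.43) and Zfp703 (-0.079). With trimmed mean scaling they were Zfp352 (0.32), Zfp445 (-0.039) and Zfp598 (-0.037), and with array weights Zfp532 (-0.058). As the mean of probe sets they were Zfp207 (0.21), Zfp445 (-0.63), Zfp592 (0.11) and Zfp638 (-0.42). With the Actb covariate they were Zfp207 (0.39), Zfp335 (0.35), Zfp385a (-0.62), Zfp445 (-0.022), Zfp592 (0.14), Zfp598 (-0.015) and Zfp809 (-0.40). When 1 array was left out, changes of sign lay within the ranges of Zfp207 (-0.37 to 0.13), Zfp275 (-0.014 to 0.27), Zfp335 (-0.49 to 0.028), Zfp352 (-0.15 to 0.071), Zfp385a (-0.27 to 0.43), Zfp445 (-0.023 to 0.066), Zfp532 (-0.14 to 0.20), Zfp598 (-0.11 to 0.13), Zfp638 (-0.051 to 0.22), Zfp668 (-0.042 to 0.37), Zfp809 (-0.041 to 0.47) and Zfp830 (-0.26 to 0.051). The cause of these changes was not tested. Values near the pseudocount, such as those of Zfp42 and Zfp81 in XY, have little precision.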
